A study of Capra hircus with 6 samples.

Results

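The lincRNAs described here were those that were listed at 0 in several of the 6 skin libraries of a goat RNA-seq study. They were chosen by their measured values: a lincRNA was taken when its mean FPKM over the libraries was under 3 and its FPKM was exactly 0 in at least 2 of the 6 libraries, with the 6 lncRNAs that the study examined by quantitative PCR left out. This rule found 121 of the 999 lincRNAs, or 121 of the 1336 lncRNA transcripts in the table, and they are called patchy lincRNAs below. FPKM is the number of sequenced fragments per kilobase of transcript, scaled to the size of the library, and each value belongs to a transcript. The zeros and the low mean are therefore what the rule used and are given as a description only.

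Each library came from the skin of a fetus at day 100 of gestation. The 3 dark skin libraries (replicates 1, 2 and 3) were from the Youzhou dark goat, a breed with pigmented skin under a largely white coat. The 3 white skin libraries (replicates 4, 5 and 6) were from the Yudong white goat, which is white in both coat and skin, so skin colour and breed cannot be told apart. No treatment or genetic modification was given in either group. Dorsal and ventral skin was collected, and the site behind each library is not given by its label. Libraries were stranded and depleted of ribosomal RNA.

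Long intergenic noncoding RNAs (lincRNAs) are spliced or unspliced transcripts from the stretches between protein-coding genes that carry no evident reading frame for a protein. As a class they are known for low and tissue-restricted expression, and members with a known role act on chromatin, on transcription of other genes or on the stability of mRNAs. In skin, TINCR is a known lincRNA that promotes the differentiation of keratinocytes, and ANCR is one that keeps epidermal progenitors undifferentiated. The transcripts described here carry only assembly numbers, so no function is known for any of them from these data, and no sequence was at hand to print.

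A listed 0 need not mean that no RNA was present. Among the marker transcripts matched, those of COL1A2 and COL3A1, fibrillar collagens that fetal skin makes in abundance, were at 0 in all 6 libraries, as was 1 transcript of TP63, and 3 more had a 0 in some library. Whether a listed 0 is a failed estimate or a count of 0 cannot be told from the table. The 6 of 16 that could be matched, among them GAPDH, RPLP0 and EEF2, had no value at 0, and their summed FPKM lay between 3172 and 3777. Melanocyte genes were present in both breeds, with a summed FPKM of 204 to 232 in dark skin and 128 to 203 in white skin for the 7 of 12 genes matched. DCT, an enzyme of melanin synthesis, had 18.4, 4.31 and 4.70 FPKM in dark skin and 0.941, 1.18 and 1.14 FPKM in white skin, a log2 difference of 2.63 ± 0.55 (SE) with an adjusted p of 0.409 in limma. MITF, the master transcription factor of melanocytes, had 8.78 to 12.6 FPKM in dark skin and 8.31 to 9.44 FPKM in white skin. Skeletal muscle mRNA was uneven. Its 2 transcripts, from the 1 of 9 genes matched, summed to 228, 67.2 and 2.56 FPKM in the white skin libraries and to 2.71, 3.02 and 20.8 FPKM in those of dark skin. Over all mRNA transcripts, 2 of 23090 (0.00866%) had an adjusted p under 0.05 between the breeds, and no marker transcript of the 8 lists was among them. That count was 26 without the filter on low values. It was 4 when dark skin replicate 3 was left out, 7 for white skin replicate 5, and 1 for either dark skin replicate 2 or white skin replicate 6. The keratinocyte list (3 of 10 genes matched) summed to 265 to 521 FPKM, and the immune list (4 of 6) to 12.8 to 15.9 FPKM. The fibroblast list (6 of 8, with COL1A2 and COL3A1 at 0) summed to 2993 to 3568 FPKM in dark skin and 3683 to 3917 FPKM in white skin, the endothelial list (4 of 7) to 57.2 to 72.4 FPKM and 80.6 to 111 FPKM, and the erythroid list (4 of 7) to 1.98 to 4.16 FPKM and 7.31 to 15.5 FPKM. The sums of these last 3 lists did not overlap between the breeds. Those of the melanocyte list did not overlap either, by a narrow margin (lowest in dark skin 203.6 FPKM, highest in white skin 203.3 FPKM). Within the fibroblast list the POSTN transcripts had log2 differences of -1.42 to -0.02, against 0.002 for LUM, 0.004 for DCN and 0.32 for PDGFRA. The part of these lists in the differences between breeds given below was not tested. Bulk FPKM cannot tell fewer cells of a type from less RNA per cell.

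Patchy lincRNAs were low where they were listed. Of their 726 values, 355 (48.9%) were 0 and 371 were above 0. The values above 0 had a median of 0.703 FPKM, with 0.380 and 1.15 FPKM as the quartiles and 6.43 FPKM as the highest, and 119 of them reached 1 FPKM. By comparison, the 759 lincRNAs with a mean FPKM under 3 and at most 1 zero had a median of 0.848 FPKM over their values above 0. Where whole numbers of fragments were found (below), 1 fragment was worth a median of 0.362 FPKM in patchy lincRNAs and 0.0882 FPKM in the others. A listed value there cannot lie under 1 fragment, so these medians do not compare abundance. The mean over all 6 libraries, zeros included, ran from 0.00799 to 1.98 FPKM with a median of 0.384 FPKM for the patchy lincRNAs, against a median of 0.843 FPKM for those 759. Only 8 values, in 6 transcripts, were above 0 and under 0.01 FPKM.

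Many of the patchy lincRNAs met the rule narrowly. There were 57 at 0 in 2 libraries, 27 in 3 libraries, 25 in 4 libraries and 12 in 5 libraries, and 111 other lincRNAs of the same low mean were at 0 in 1 library. The cap on the mean decided few of them. TCONS_00159441 (chromosome 3, plus strand) had the highest mean under it, at 1.98 FPKM, followed by TCONS_00083816 (chromosome 19, minus strand) at 1.59 FPKM. Just outside, 3 lincRNAs had at least 2 zeros and a mean of at least 3 FPKM, the lowest being TCONS_00111296 with a mean of 3.03 FPKM and TCONS_00100755 with a mean of 6.45 FPKM. The values of TCONS_00100755 were 15.2, 8.84 and 0 FPKM in dark skin and 6.68, 0 and 8.01 FPKM in white skin, so each zero stood beside far higher values in the same breed. The lowest mean was that of TCONS_00056614, with 0 in dark skin and 0.000107, 4.02e-05 and 0.0478 FPKM in white skin.

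**Figure D1:**
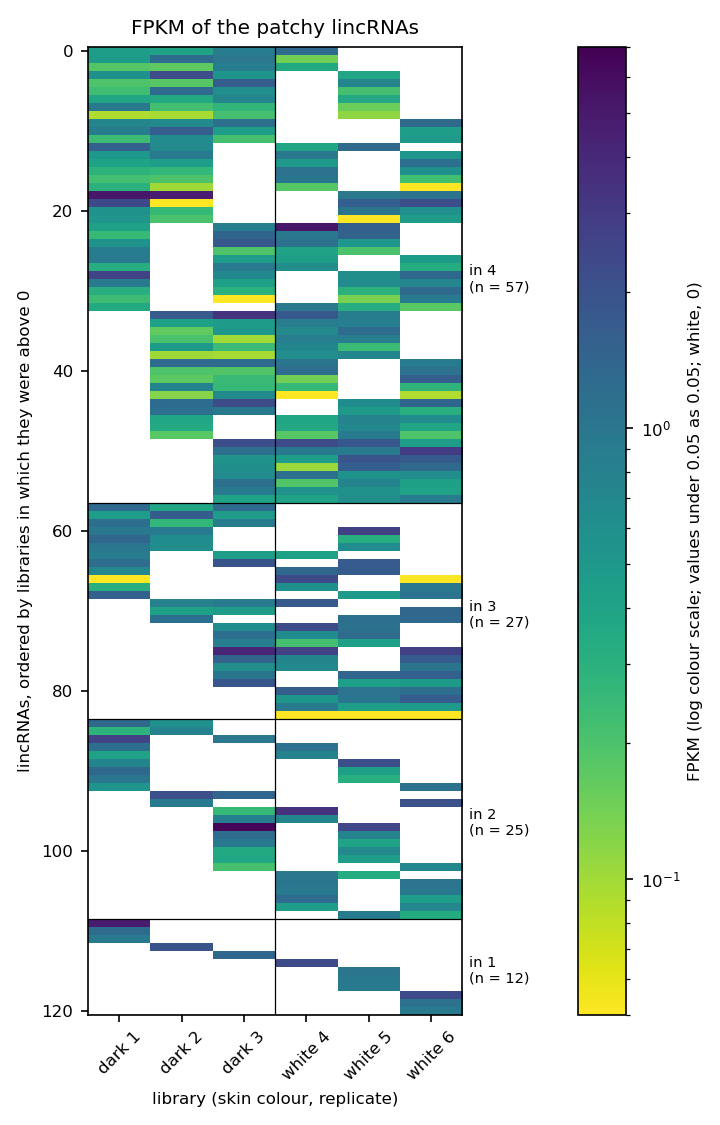
FPKM of the 121 patchy lincRNAs (rows) in the 6 libraries (columns), on a log colour scale with 0 in white, ordered by the number of libraries in which each was above 0. The blocks hold 57, 27, 25 and 12 lincRNAs that were above 0 in 4, 3, 2 and 1 libraries, and no library stands empty.

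Zeros occurred in every library. Dark skin replicates 1, 2 and 3 had 57, 52 and 69 of the 121 above 0, and white skin replicates 4, 5 and 6 had 63, 68 and 62. Dark skin replicate 2 had the fewest and dark skin replicate 3 the most, so the breeds overlapped. The summed FPKM of the patchy lincRNAs followed the same order at its ends, with 51.8, 38.8 and 65.8 FPKM for the dark skin libraries and 60.1, 57.1 and 57.1 FPKM for those of white skin. Where they were listed, their median was 0.591, 0.457 and 0.741 FPKM in dark skin and 0.755, 0.735 and 0.905 FPKM in white skin, and dark skin replicate 3 exceeded white skin replicate 5.

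The combinations of libraries were varied. Of the 56 possible combinations of 1 to 4 libraries, 48 occurred, and the most frequent, dark skin replicate 3 with all 3 white skin libraries, held 8 lincRNAs. There were 92 lincRNAs above 0 in both breeds, 12 in dark skin alone and 17 in white skin alone. The most frequent split was 2 libraries of each breed, with 33 lincRNAs. In 31 the dark skin libraries above 0 outnumbered those of white skin, in 42 the reverse was found, and in 48 the numbers were equal.

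The sharing of patchy lincRNAs overlapped between pairs of libraries within a breed and pairs across breeds. Of the lincRNAs above 0 in either library of a pair, 28.6% to 42.0% (median 33.4%) were above 0 in both for the 6 pairs within a breed, and 22.4% to 42.7% (median 28.1%) for the 9 pairs between breeds. The highest share was that of dark skin replicate 3 and white skin replicate 5, with 41 of 96 (42.7%), and the lowest that of dark skin replicate 1 and white skin replicate 4, with 22 of 98 (22.4%). Dark skin replicate 3 also shared 38 of 94 (40.4%) with white skin replicate 4. These 3 libraries were the ones with the most skeletal muscle mRNA, but white skin replicates 4 and 5 shared 32 of 99 (32.3%), and 3 lincRNAs were above 0 in these 3 libraries alone. The part of muscle in the sharing was not tested. The pairs have libraries in common and the zeros were chosen by the rule, so the shares are given without a test.

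**Figure D2:**
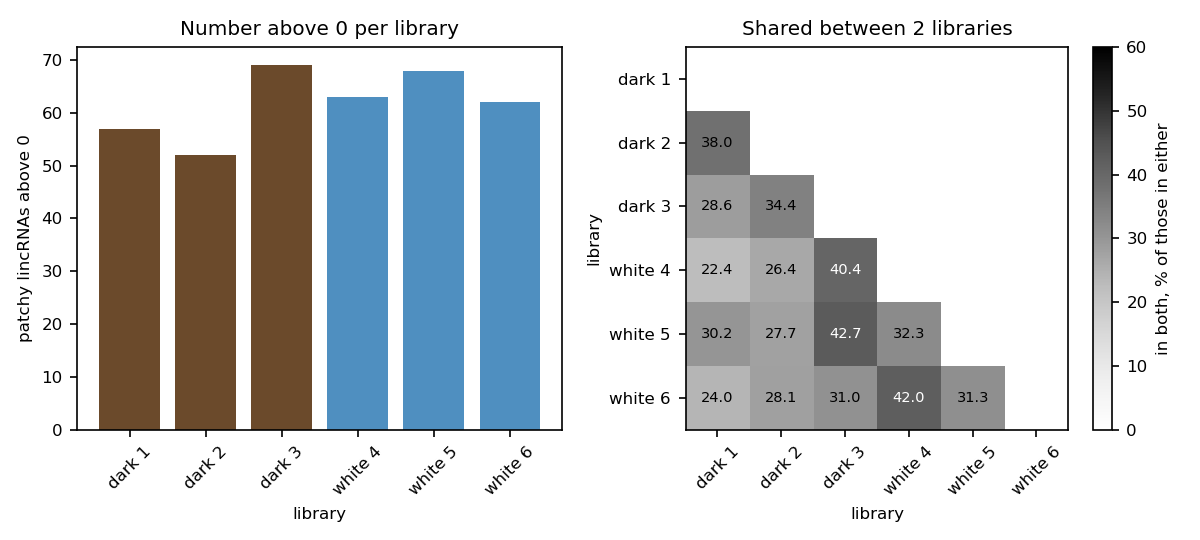
Left, the number of the 121 patchy lincRNAs above 0 in each library (brown, dark skin; blue, white skin), from 52 in dark skin replicate 2 to 69 in dark skin replicate 3. Right, the percent of the lincRNAs above 0 in either of 2 libraries that were above 0 in both, from 22.4% to 42.7%, with pairs within and between breeds overlapping.

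In many low transcripts the FPKM values stood at whole multiples of a smallest step, which was taken as the worth of 1 fragment. In TCONS_00209522, for instance, the values 1.64, 1.07 and 1.17 FPKM in the white skin libraries were 3, 2 and 2 times the step of their library. The step depends on the transcript, and transcripts with equal steps had equal values only where their numbers of fragments were equal. TCONS_00037713 and TCONS_00111296, for instance, were both at 0.703 FPKM in dark skin replicate 3, which was 1 step for each. The steps of the 6 libraries followed one another along a smooth curve, fitted on 611 lncRNA transcripts with a residual SD of 0.0109%. At a mean step of 0.362 FPKM, the step was 0.343 FPKM in dark skin replicate 2 and 0.384 FPKM in white skin replicate 6, with the other libraries between them, so 1 fragment was worth about as much in every library. The whole numbers are the smallest that give the values, and a factor common to all libraries would go unseen.

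Few fragments lay behind the patchy lincRNAs. Whole numbers were found for 87 of the 109 that were above 0 in at least 2 libraries (79.8%). They could not be sought for the 12 found in 1 library, and 22 others, including those with traces under 0.01 FPKM, gave none. Over the 6 libraries together the 87 had a median of 7 fragments, with quartiles of 5 and 11 and a range of 2 to 39. Of their 286 values above 0, 111 (38.8%) were 1 fragment and 222 (77.6%) were 1 to 3 fragments. Their step was large, with a median of 0.362 FPKM against 0.0882 FPKM for the 432 other low lincRNAs with whole numbers, whose median total was 52 fragments (quartiles 25 and 110). At most 10 fragments in all were found in 64 of the 87 patchy lincRNAs (73.6%) and in 18 of those 432 (4.17%). The total and the zeros come from the same values, so this contrast partly repeats the rule.

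The totals were lower the more zeros a lincRNA had, as the rule implies. LincRNAs with a mean FPKM under 3 had a median of 65 fragments with no zero, 16 with 1 zero, 9 with 2 zeros, 7 with 3 zeros and 4 with 4 zeros, and the median step was 0.0733, 0.195, 0.235, 0.443 and 0.410 FPKM in the same order. Where a listed 0 is a count of 0, it allows up to 3 fragments in that library, counting error alone considered. For the patchy lincRNAs 3 fragments were between 0.228 and 3.66 FPKM, with a median of 1.09 FPKM. In 48 of the 87 no library exceeded 3 fragments, so a difference between any single library and one listed at 0 was not detectable at this depth. Zeros also stood beside many fragments, and TCONS_00100755, outside the rule by its mean, had 41, 26, 0, 19, 0 and 21 fragments.

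**Figure D3:**
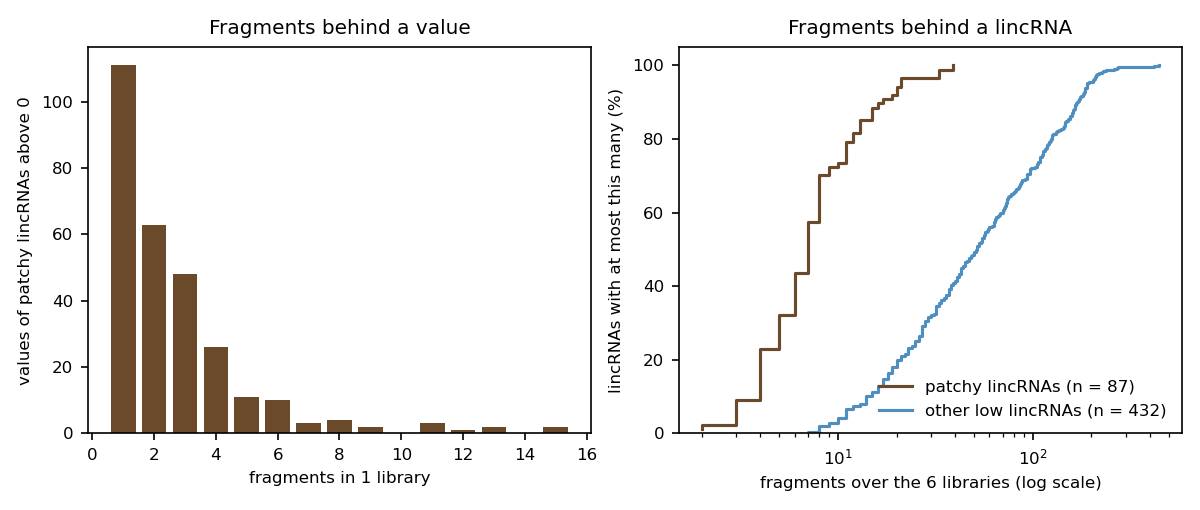
Left, the number of fragments behind each of the 286 values above 0 of the 87 patchy lincRNAs with whole numbers, of which 111 were 1 fragment. Right, the percent of lincRNAs with at most a given number of fragments over the 6 libraries (log scale), for patchy lincRNAs (brown, median 7) and other low lincRNAs with at most 1 zero (blue, median 52).

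In 5 of the 87 with whole numbers, chosen after their values were seen, at least 10 fragments in a library stood beside zeros. TCONS_00214984 (chromosome X, plus strand) had 0, 0 and 2.15 FPKM in dark skin and 2.21, 1.82 and 0.438 FPKM in white skin, which were 0, 0, 11, 11, 9 and 2 fragments. Dark skin replicate 3 was as high as the highest white skin libraries, and the breeds overlapped. TCONS_00000065 (an unplaced contig, minus strand) had 0, 0 and 0.592 FPKM in dark skin and 0.105, 1.60 and 1.27 FPKM in white skin, with 15 fragments in white skin replicate 5. Both were at 0 in the same 2 dark skin libraries. TCONS_00057469 (chromosome 15, minus strand) had 1.54, 0.655 and 0 FPKM in dark skin and 0.380, 1.26 and 0 FPKM in white skin, or 15, 7, 0, 4, 13 and 0 fragments, with 1 library of each breed at 0. TCONS_00141114 (chromosome 27, plus strand) had 0.417, 0 and 0.838 FPKM in dark skin and 5.18, 1.57 and 0 FPKM in white skin, and 13 of its 20 fragments were in white skin replicate 4. The last, TCONS_00020499 (chromosome 10, minus strand), had 12 fragments in dark skin replicate 1 and none in white skin replicates 4 and 6.

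Of the 5 lincRNAs with the highest value in any library, the highest value of TCONS_00141114 rested on 13 fragments, those of TCONS_00159441 and TCONS_00083816 on 5 and 4, and for the other 2 the number is unknown. TCONS_00076490 (chromosome 18, minus strand) held the highest FPKM of all, with 6.43 in dark skin replicate 3, 2.45 in white skin replicate 5 and 0 in the other libraries. TCONS_00159441 had 5.08, 4.75 and 0 FPKM in dark skin and 0, 0.962 and 1.07 FPKM in white skin, which were 5, 5, 0, 0, 1 and 1 fragments. TCONS_00083816 had 0, 0 and 4.14 FPKM in dark skin and 2.62, 0 and 2.77 FPKM in white skin, or 4, 3 and 3 fragments where it was listed. Neither separated the breeds, and with a step near 1 FPKM a single fragment changed their values by about that much. Of the 12 lincRNAs found in 1 library, TCONS_00212428 (chromosome 9, minus strand) was by far the highest, with 4.78 FPKM in dark skin replicate 1.

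Each library had at least 1 patchy lincRNA that was at 0 in all others. Dark skin replicates 1, 2 and 3 had 3, 1 and 1 of the 12, and white skin replicates 4, 5 and 6 had 1, 3 and 3. After TCONS_00212428, the highest in each of the other libraries were TCONS_00018856 (1.94 FPKM, dark skin replicate 2), TCONS_00014332 (1.32 FPKM, dark skin replicate 3), TCONS_00191139 (2.28 FPKM, white skin replicate 4), TCONS_00203488 (1.05 FPKM, white skin replicate 5) and TCONS_00167622 (2.32 FPKM, white skin replicate 6). Dark skin replicate 1 also held TCONS_00168876 at 0.910 FPKM and TCONS_00001454 at 1.22 FPKM, both at 0 elsewhere. With a single value the number of fragments behind it is unknown.

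Patchy lincRNAs were next compared between dark and white skin, the contrast the study was built on. The rule did not use the breed, although the zeros it used enter both the difference and its error. Differences were tested with limma on log2(FPKM + 0.1) across the 1332 lncRNA transcripts whose mean FPKM reached 0.1, as did that of 119 of the 121. For low transcripts the size of a log2 difference depends on the 0.1 added, which is less than 1 fragment for many of them, and it can be too small or too large. After Benjamini-Hochberg adjustment 0 of the 119 passed 0.05, as did 0 of all 1332 (0%), and the smallest adjusted p of a patchy lincRNA was 0.0857. At an unadjusted p under 0.05 there were 15 of them and 117 of all lncRNAs. Of these 15, 7 (5.88% of 119) were higher in dark skin and 8 (6.72%) lower, against 3.9% and 4.88% of all lncRNAs tested. The count lower in dark skin was 4 without dark skin replicate 1 and 5 without dark skin replicate 2. The breeds did not overlap in 7 that were higher in dark skin (5.88%) and in 7 that were lower (5.88%), against 6.08% and 9.83% of all lncRNAs tested. A lincRNA at 0 in some library of each breed cannot be without overlap, whatever its other values. The rule therefore limits these shares, and nothing is read from their distance to those of all lncRNAs.

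The error of the difference was large. Its median standard error was 1.19 on the log2 scale for patchy lincRNAs, 0.46 for the 757 other low lincRNAs tested and 0.43 for all lncRNAs. The median log2 difference, dark minus white, was -0.28 over the 119 and -0.11 over all lncRNAs, with 52 above 0 and 67 below 0. With a library left out, that of patchy lincRNAs lay between -0.60 (without dark skin replicate 3) and -0.06 (without dark skin replicate 2). In the same fits the median over all lncRNAs was -0.04 and -0.16, so which was lower depended on the library left out. Dark skin replicate 2 was the library with the lowest summed FPKM of patchy lincRNAs.

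**Figure D4:**
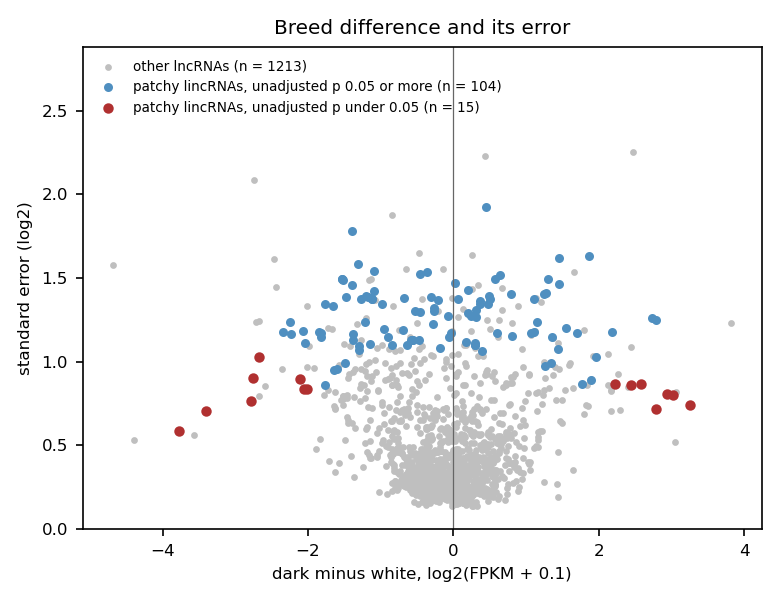
Difference between dark and white skin on the log2(FPKM + 0.1) scale (x axis) and its standard error (y axis) for 1213 other lncRNAs (grey) and the 119 patchy lincRNAs tested (blue, and red for the 15 with an unadjusted p under 0.05). Patchy lincRNAs sit at larger errors, with a median of 1.19 against 0.43 for all lncRNAs.

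There were 7 patchy lincRNAs above 0 in all libraries of a breed and at 0 in all of the other, 3 in dark skin and 4 in white skin. Over all 1336 lncRNAs there were 3 (0.225%) and 5 (0.374%), and since the rule asks for zeros nearly all of these fall among the patchy lincRNAs, so nothing is read from the counts. Of the 3 in dark skin, TCONS_00070822 (chromosome 17, minus strand) had 1.24, 0.380 and 1.24 FPKM, which were 3, 1 and 3 fragments, and was listed at 0 in all white skin libraries. Its log2 difference of 3.25 ± 0.74 (SE) had an adjusted p of 0.257 in limma, and it was 6.41 with a pseudocount of 0.01 and 0.93 with 1, so the fitted size against zeros is no measure of the fold. TCONS_00212491 (chromosome 9, minus strand) had 0.450, 1.66 and 0.458 FPKM in dark skin, or 1, 4 and 1 fragments (adjusted p = 0.357 in limma). TCONS_00031737 (chromosome 11, minus strand) had 1.17, 0.267 and 0.868 FPKM in dark skin, with no whole numbers found (adjusted p = 0.372 in limma). In each of the 3 the dark skin libraries varied among themselves, with the lowest at or under 0.450 FPKM.

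In white skin there were 4. TCONS_00209522 (chromosome 9, minus strand), with 1.64, 1.07 and 1.17 FPKM and 3, 2 and 2 fragments, had the smallest p of all patchy lincRNAs. Its log2 difference, dark minus white, was -3.78 ± 0.59 (SE) with an adjusted p of 0.0857 in limma, and 0.00743 when the variance was not allowed to follow the mean level. In the other limma settings that tested it, the smallest adjusted p of any patchy lincRNA was 0.0531 (pseudocount of 1) to 0.355 (without white skin replicate 5). TCONS_00167810 (chromosome 4, minus strand) had 0.514, 1.005 and 1.66 FPKM, or 1, 2 and 3 fragments (adjusted p = 0.228 in limma). TCONS_00074276 (chromosome 18, minus strand) had 0.908, 0.446 and 0.490 FPKM, or 2, 1 and 1 fragments (adjusted p = 0.372 in limma). Of the 6 with a mean of at least 0.1 FPKM, none passed the adjusted threshold in the reported fit. The remaining 1 was TCONS_00056614, which did not exceed 0.0478 FPKM and was not tested.

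**Figure D5:**
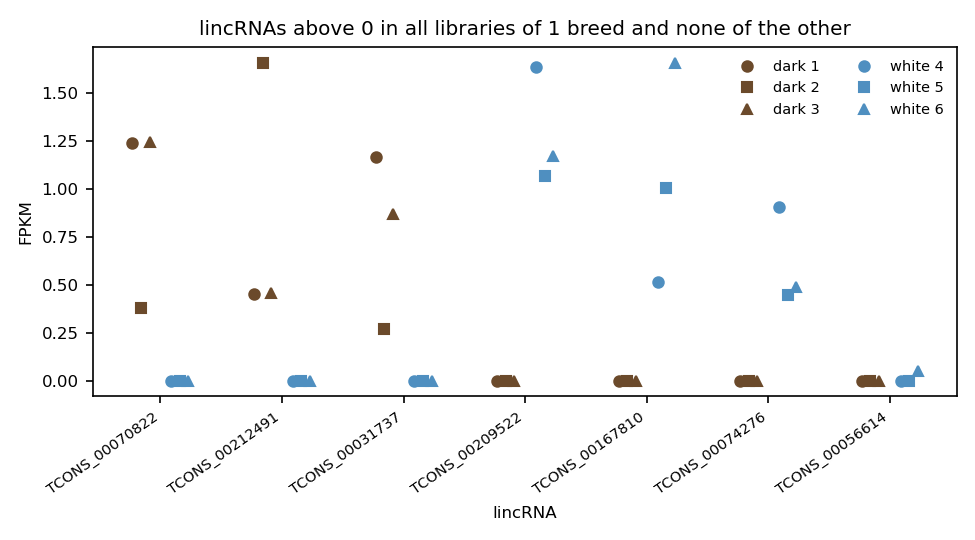
FPKM in each library of the 7 patchy lincRNAs that were above 0 in all libraries of a breed and at 0 in all of the other (brown, dark skin; blue, white skin; each symbol is a library). Values above 0 range up to 1.66 FPKM, and those of TCONS_00056614 are near 0.

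The breeds were set side by side in fragments as well. Among the 87 with whole numbers, 5 had fragments in dark skin alone and 9 in white skin alone, none with more than 7. Summed over the 87, dark skin had 339 fragments (109, 84 and 146 by library) and white skin 433 (158, 161 and 114), and dark skin replicate 3 exceeded white skin replicate 6.

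The other patchy lincRNAs with the smallest p-values were above 0 in both breeds. TCONS_00063940 (chromosome 16, minus strand) had 0.462, 1.23 and 0.981 FPKM in dark skin and 0.143, 0 and 0 FPKM in white skin, without overlap and with a log2 difference of 2.79 ± 0.72 (SE, adjusted p = 0.328 in limma). TCONS_00080669 (chromosome 18, minus strand) had 0.591, 2.17 and 0.547 FPKM in dark skin and 0, 0.380 and 0 FPKM in white skin, also without overlap (adjusted p = 0.460 in limma). Both were low in white skin but listed there in 1 library. In the other direction, TCONS_00042990 (chromosome 13, minus strand) had 0, 0 and 0.546 FPKM in dark skin and 0.450, 1.90 and 1.73 FPKM in white skin (adjusted p = 0.460 in limma). TCONS_00055566 (chromosome 15, minus strand) had 0, 0 and 1.13 FPKM in dark skin and 0.941, 0.893 and 2.98 FPKM in white skin, which were 1 fragment in dark skin replicate 3 and 1, 1 and 3 fragments in white skin (adjusted p = 0.530 in limma). In these last cases dark skin replicate 3 lay within the range of white skin, so the breeds overlapped.

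Some patchy lincRNAs had another lncRNA next to them in the assembly. Within the table, a set of 16 of the 121 had a lncRNA on the same chromosome and strand within 3 numbers. Of their 42 zeros, 34 fell in libraries where a neighbour was above 0, and in 12 of the 16 a neighbour was above 0 at every zero. Most lncRNAs were above 0 in any library, with 84 to 116 of all 1336 at 0, so nothing is read from these counts. TCONS_00042990 had the highest neighbour, since TCONS_00042988, 2 numbers away, had 33.3 to 62.4 FPKM in all 6 libraries. Beside the dark skin zeros of TCONS_00042990, TCONS_00042988 had 56.2 and 48.1 FPKM, and a further neighbour, TCONS_00042987, had 0.00570 and 12.5 FPKM. TCONS_00171714 (chromosome 5, plus strand), at 0 in 4 libraries, lay next to TCONS_00171712, an intronic lncRNA with 7.39 to 12.9 FPKM. TCONS_00070822, found in dark skin alone, lay by TCONS_00070825, which had 1.24, 1.87 and 0.945 FPKM in dark skin and 0.660, 0.664 and 0.543 FPKM in white skin.

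Both lincRNAs were patchy in 3 such pairs. TCONS_00020498 had 0.917, 0 and 0.469 FPKM in dark skin and 0.440, 0 and 0.475 FPKM in white skin. Its neighbour TCONS_00020499 had 0.971, 0.221 and 0.277 FPKM in dark skin and 0, 0.152 and 0 FPKM in white skin, so each library held at least 1 of them. TCONS_00037713 had 2.56, 0 and 0.703 FPKM in dark skin and 0, 0.605 and 1.33 FPKM in white skin, and TCONS_00037710 was found only in dark skin replicate 3 (1.22 FPKM) and white skin replicate 5 (0.765 FPKM), where TCONS_00037713 was found too. In the third pair, TCONS_00062385 was above 0 in those same libraries and TCONS_00062386 in these and in dark skin replicate 1 and white skin replicate 6. Of the members with a neighbour, 2 others of higher mean were TCONS_00141200 (chromosome 27, plus strand), with 0, 1.70 and 3.24 FPKM in dark skin and 1.81, 0.862 and 0 FPKM in white skin, and TCONS_00141862 (chromosome 27, minus strand), with 0, 0 and 1.12 FPKM in dark skin and 0.192, 0.774 and 0.420 FPKM in white skin. The neighbours of both, TCONS_00141198 and TCONS_00141860, were above 0 in all 6 libraries. Whether neighbours are parts or isoforms of a single transcript cannot be told from the table, which gives no start or end.

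The patchy lincRNAs were spread over most of the chromosomes that held lincRNAs. They lay on 27 chromosomes and on unplaced contigs (3 lincRNAs), 56 on the plus and 65 on the minus strand. Chromosome 4 had the most, with 12 of its 47 lincRNAs (25.5%), followed by chromosomes 7, 8 and 10 with 8 each, against 12.1% of all lincRNAs. With the limits on zeros and mean applied to the other classes, 19 of 218 intronic lncRNAs (8.72%) and 11 of 119 anti-sense lncRNAs (9.24%) met them, and 122 of 999 lincRNAs (12.2%) did when the lncRNAs examined by quantitative PCR were not left out.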

How the data were processed

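Total RNA of fetal skin was depleted of ribosomal RNA and sequenced as paired-end, stranded libraries. The authors aligned clean reads with TopHat 2.0.9 and Bowtie2 2.0.6, assembled transcripts with Scripture and Cufflinks 2.1.1, kept multiple-exon transcripts without coding potential and calculated FPKM with Cuffdiff (2.1.1 in the methods; the submitters' notes also list 2.2.2). The deposited FPKM values are per transcript and library, normalized for length and library size, and the tables carry no read counts. The 1 further column is the authors' mean FPKM.

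The members and gene lists were chosen with earlier results of these data known. Breed differences were fitted with limma 3.58.1 in R 4.3.3 (eBayes with trend) on log2(FPKM + 0.1), over all transcripts of a table whose mean FPKM reached 0.1. The p-values were 2-sided and adjusted by Benjamini-Hochberg. Each library is 1 replicate. Mean FPKM, zeros and sharing were computed in Python 3.11.15 (pandas 2.3.3, numpy 2.4.6). Fragment numbers were sought as whole multiples of a per-transcript step within 0.1%, with at most 25 fragments for the lowest value and a coincidence probability of at most 0.02, after the curves linking the libraries' steps had been fitted. The limma fit and the search for fragment numbers were each tested on simulated data. Fragment numbers entered no test. Marker genes were matched by RefSeq accession (ARS1.2), which gave a symbol to 9497 of 27947 mRNA transcripts.

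The lincRNAs named are those found in all libraries of a single breed, the 5 smallest p-values in each direction, the 5 with the highest value in any library, the highest in each library alone, those at the limits of the rule, the 5 highest of those with a neighbour, and 2 that were named in earlier work on these data. Others are said to be chosen after their values were seen or are the partners in a pair. Alternatives were pseudocounts of 0.01 and 1, no filter, a mean FPKM of at least 1, median centring, quantile normalization, no trend, other limits of the rule, and each library left out.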

Additional observations from a re-analysis of the deposited data

How the results depend on the processing

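With all lncRNAs tested, 2 passed the adjusted threshold after median centring, after quantile normalization and without the trend, against 0 in the reported fit, and leaving out a library gave 0 to 2, the 2 without dark skin replicate 3. Of the patchy lincRNAs 1 passed without the trend, and 0 in each other setting run. With a mean FPKM of at least 1 only 7 of them were tested, and 0 had an unadjusted p under 0.05 in either direction. Those lower in dark skin at that p numbered 5 after quantile normalization and 4 to 10 when a library was left out, the 4 without dark skin replicate 1 and 5 without dark skin replicate 2, against 8. Over all mRNA transcripts 26 passed without a filter, and 1 to 7 when a library was left out, against 2. Of 120 refits of the 10 named differences, 119 kept their direction and side of the threshold, 0 reversed and 1 passed it (TCONS_00209522 at -3.78 without the trend). Those at 0 in a whole breed could hardly change direction in any refit, so this tally is partly fixed by the zeros. It also leaves out the size, which for TCONS_00070822 was 6.41 with a pseudocount of 0.01 and 0.93 with 1. Except for the smaller sets given above, the cause of the changed counts was not tested.

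Requiring 3 zeros left 64 lincRNAs instead of 121, and leaving out a library while requiring 2 zeros among the other 5 gave 98 to 107. Treating values under 0.01 or 0.1 FPKM as absent gave 144 and 158, and left 3 found in all white skin libraries alone instead of 4. Settings chosen after seeing the data gave whole numbers for 83 (tolerance of 0.3%), 87 (multiples up to 10) and 67 (coincidence limit of 0.002) lincRNAs instead of 87, with medians of 7, 7 and 8 fragments, and 38 with a neighbour within 10 numbers instead of 16. No paired analysis was possible because the dark and white skin libraries came from fetuses of different breeds. The few fragments found per lincRNA and the zeros of COL1A2 and COL3A1 limit what a listed 0 shows, and the number of fragments is unknown for the lincRNAs without whole numbers.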

Other observations

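Protein-coding transcripts had patchy values as well. Of the 27947 mRNA transcripts, 3576 (12.8%) were above 0 in at least 1 library, at 0 in at least 2 and under a mean of 3 FPKM, and another 946 were at 0 in all 6 libraries, which was the case for none of the lncRNAs. There were 42 mRNA transcripts above 0 in all dark skin libraries and no other, and 66 for white skin.

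The share of each chromosome's lincRNAs that were patchy ran from 12 of 47 (25.5%) on chromosome 4 and 6 of 24 (25%) on chromosome 27 to 1 of 31 (3.23%) on chromosome 19 and none of 21 on chromosome 22 or of 12 on chromosome 29. These are counts without a test, and chromosome 1 held no lincRNA of any kind.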
